A study of Mus musculus with 21 samples.

Results

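The genes described are those of the Kv1 family of voltage-gated potassium channels, namely the 6 alpha subunit genes *Kcna1* to *Kcna6* and the 3 beta subunit genes *Kcnab1*, *Kcnab2* and *Kcnab3*. They were chosen by symbol, and all 9 were found among the 52550 genes of the count table. RNA was sequenced from 7 groups of C57BL/6 mouse cells with 3 libraries each, 21 in all. Spiral ganglion neurons (SGNs), the neurons that carry sound information from the cochlea to the brainstem, came from *ShhCre/+* mice with 1 copy of the Ai9 reporter (*Rosa26-CAG-loxp-stop-loxp-tdTomato*). They were taken before birth at E15.5 and after it at P1, P8, P14 and P30. In these mice Cre under the *Shh* promoter switches on tdTomato, and between 69 and 195 red cells were picked by hand for each library. Hair cells (HCs) at P12 carried *Atoh1-CreER+* and the same reporter, had received tamoxifen in the first days after birth, and came from cochlear and vestibular organs together, with about 1200 cells per library. Glia at P8 carried *vGlut3-iCreER/+* and the reporter, had also received tamoxifen in the first week, and were picked from the dissected ganglion area, with between 86 and 125 cells per library. Every group thus carries a Cre and the reporter, and no group without them was analysed here. HCs are a mixture of cochlear and vestibular cells, and their age lies between that of the P8 and the P14 SGNs. The labels number the replicates without saying whether they came from separate animals, so p-values measure the spread between these libraries only.

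Between 10368240 and 37287489 counts per library fell on genes, so that a count of 3, the limit used for a gene with no counts, equals between 0.0805 and 0.289 CPM (counts scaled to the total of the library). The summed level of 6 SGN marker genes was between 378 and 679 RPKM in SGNs and at most 15.4 in HCs, and that of 5 HC marker genes was between 698 and 748 RPKM in HCs and at most 87.7 elsewhere. Glial replicate 1 stood apart, with a summed SGN marker level that was 15.7% of the P8 SGN mean, against 1.94% and 1.98% in the other glial libraries. The summed level of 8 Schwann cell myelin genes in P8 SGNs was 15%, 8.94% and 11.2% of the glial mean, and it lay between 0.117% and 5.86% at the other ages. HC replicate 1 had a myelin sum of 1.01% of the glial mean, against 0.109% and 0.0829% in replicates 2 and 3. Levels are RPKM, that is counts scaled to the gene's length in kilobases and to the library size after TMM adjustment. Errors are SDs over 3 libraries. RNA of whole samples was measured, so fewer cells of a type and less RNA per cell cannot be told apart.

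A Kv1 channel is an assembly of alpha subunits around a potassium-selective pore, often with cytoplasmic beta subunits attached. Channels built from *Kcna1* and *Kcna2* open near the resting potential and hold back repetitive firing, and in myelinated axons they gather beside the node of Ranvier under the myelin. *Kcna4* carries its own inactivation gate and gives a rapidly closing current. Of the beta subunits, *Kcnab1* can add such a gate to alpha subunits that have none, whereas *Kcnab2* acts mainly in the transport and placing of channels.

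The coding stretch around the selectivity filter, the narrowest part of the pore, is shown because potassium passes the channel there. It also shows which bases the 6 alpha subunit genes share. The 60 bases of each alpha subunit gene are given 5′ to 3′ on the coding strand from GENCODE M21 transcripts on GRCm38, with capitals marking the 37 bases that all 6 genes share.
Kcna1: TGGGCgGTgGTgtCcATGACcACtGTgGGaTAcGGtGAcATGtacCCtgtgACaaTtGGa
Kcna2: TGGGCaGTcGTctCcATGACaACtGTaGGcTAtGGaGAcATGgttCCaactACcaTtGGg
Kcna3: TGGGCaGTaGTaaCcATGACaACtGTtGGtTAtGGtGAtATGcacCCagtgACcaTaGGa
Kcna4: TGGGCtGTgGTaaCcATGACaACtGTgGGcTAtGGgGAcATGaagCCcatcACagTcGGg
Kcna5: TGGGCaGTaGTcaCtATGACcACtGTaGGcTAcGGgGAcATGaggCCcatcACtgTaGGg
Kcna6: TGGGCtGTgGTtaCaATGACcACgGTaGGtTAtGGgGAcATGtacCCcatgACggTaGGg

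The stretches lie at chr6:126642204-126642263 (*Kcna1*, minus strand, exon 2), chr3:107105203-107105262 (*Kcna2*, plus strand, exon 3) and chr3:107037590-107037649 (*Kcna3*, plus strand, exon 1). Those of the others lie at chr2:107296474-107296533 (*Kcna4*, plus strand, exon 2), chr6:126533721-126533780 (*Kcna5*, minus strand, exon 1) and chr6:126738623-126738682 (*Kcna6*, minus strand, exon 1). The capitals are interrupted every few bases, mostly at the last base of a codon, so that even at the pore no long run is common to the 6 genes. Since capitals mark only bases common to all 6, they do not show whether reads of any 1 pair can be told apart. Over whole coding sequences, pairs of alpha subunit genes were identical at between 71.3% (*Kcna4* and *Kcna5*) and 78.0% (*Kcna5* and *Kcna6*) of aligned bases. *Kcna1* and *Kcna2* were identical at 74.2%. Of the 50-base words in the transcripts of *Kcna1* and *Kcna4*, 0 were found in a transcript of another gene. *Kcna5* shared 79 of its 2813 words with *Kcna6*, and *Kcna3* shared 6 of its 1853 with *Kcna10*. *Kcna6* shared 38.8% of its words with other genes, mainly with *Gm26673*, an antisense gene that covers 2355 of its exon bases and had at most 88 counts in a library. The libraries do not keep the strand, so reads of *Kcna6* and *Gm26673* in that overlap cannot be told apart. Whether such reads were counted is not given, while the levels and shares of *Kcna6* divide by its whole length, overlap included. *Kcna1*, *Kcna2*, *Kcna3*, *Kcna4* and *Kcna5* share no exon bases with another gene of the annotation.

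*Kcna1* and *Kcna2* were the alpha subunit genes with the most RNA in SGNs from P1 on, and both rose from low embryonic levels to their highest levels at P14 or P30. *Kcna1* (ENSMUSG00000047976, chr6:126640397-126646384, minus strand) measured 6.84, 12.2 and 14.2 RPKM in the 3 libraries at E15.5, 15.6, 25.4 and 20.2 at P1, and 56.5, 80.4 and 74.1 at P8. It measured 118, 135 and 120 RPKM at P14 and 91.8, 121 and 109 at P30. All P8 libraries lay above those of P1 and all P14 libraries above those of P8, whereas P14 and P30 overlapped. In limma-voom, *Kcna1* rose from P1 to P8 (log2 fold change 1.82, SE 0.21, adjusted p = 5.93e-05) and over the whole span from E15.5 to P30 (3.24, SE 0.26, adjusted p = 9.93e-08). From E15.5 to P1 the log2 fold change was 0.85 (SE 0.28, adjusted p = 0.0595), and it reached 1.02 with an adjusted p of 0.0409 without P1 replicate 1.

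*Kcna2* (ENSMUSG00000040724, chr3:107101146-107115005, plus strand) measured 4.75, 10.1 and 3.93 RPKM at E15.5, 11.7, 14.8 and 13.6 at P1, and 57.5, 68.9 and 54.8 at P8. At P14 the libraries held 92.6, 130 and 116 RPKM, and at P30 131, 147 and 148. Each age lay above the age before it in all its libraries. *Kcna2* rose from P1 to P8 by 2.19 on the log2 scale (SE 0.21, adjusted p = 8.48e-06), which is 4.57-fold, and from E15.5 to P30 by 4.57 (SE 0.25, adjusted p = 2.77e-09), which is 23.8-fold. It also passed both thresholds from E15.5 to P1 (1.18, SE 0.28, adjusted p = 0.0127). That early call was lost in 4 of 14 alternatives, among them those without E15.5 replicate 3 (0.89, adjusted p = 0.0624) and without P1 replicate 2 (1.06, adjusted p = 0.0535). From P8 to P14 *Kcna1* (0.84, SE 0.18, adjusted p = 0.0386) and *Kcna2* (0.89, SE 0.17, adjusted p = 0.0219) passed the adjusted p but not the 2-fold threshold. Without P14 replicate 1 *Kcna2* passed both (1.03, adjusted p = 0.0206).

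*Kcna6* went the other way. Its product is a further alpha subunit that joins neuronal Kv1 channels. *Kcna6* (ENSMUSG00000038077, chr6:126708329-126740674, minus strand) measured 9.31, 9.21 and 12.5 RPKM at E15.5, a level that overlapped those of *Kcna1*, and 8.87, 10.8 and 11 at P1. It measured 4.80, 4.88 and 4.89 RPKM at P8, 3.45, 1.59 and 5.72 at P14, and 3.65, 2.66 and 3.25 at P30. All 6 libraries of the first 2 ages lay above all 9 of the later ages. *Kcna6* fell from E15.5 to P30 (log2 fold change -1.70, SE 0.32, adjusted p = 0.000555), a call kept in all 14 alternatives, and from P1 to P8 (-1.05, SE 0.26, adjusted p = 0.0151). The latter lay close to the 2-fold threshold and was lost with edgeR's quasi-likelihood test (-1.07, adjusted p = 0.0790), without P1 replicate 3 (-0.997, adjusted p = 0.0488) and without P8 replicate 2 (-1.07, adjusted p = 0.0525).

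The remaining alpha subunit genes were low in SGNs. *Kcna3* (ENSMUSG00000047959, chr3:107036169-107038070, plus strand), best known from lymphocytes, measured 0.140, 0.460 and 0.0509 RPKM at E15.5 and 3.84, 1.73 and 2.32 at P30. At P14 it measured 2.86, 0.224 and 3.17 RPKM, with only 8 counts in replicate 2. It passed the filter on low counts through P8 and P30 and not through E15.5. The fitted difference from E15.5 to P30 (log2 fold change 3.94, SE 1.19, adjusted p = 0.0143) is thus a description, on 4, 18 and 2 counts at E15.5. It missed the threshold with sample quality weights (3.76, adjusted p = 0.0815) and without E15.5 replicate 3 (3.17, adjusted p = 0.0721). *Kcna4* (ENSMUSG00000042604, chr2:107290639-107298502, plus strand) had mean levels between 0.0318 and 0.471 RPKM over the SGN ages and did not enter the fit of the ages. *Kcna5* (ENSMUSG00000045534, chr6:126532551-126535412, minus strand), known from heart and smooth muscle, had at most 46 counts in any of the 21 libraries and group means between 0.0138 and 0.297 RPKM. It entered no test.

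Among the beta subunits, *Kcnab2* and *Kcnab3* rose in SGNs, and *Kcnab1* was not called in any comparison between ages. *Kcnab2* (ENSMUSG00000028931, chr4:152390742-152477871, minus strand) measured 4.28, 8.44 and 6.31 RPKM at E15.5, 11.8, 19.2 and 13.6 at P1, and 47.8, 54.5 and 56.2 at P8. It then measured 101, 147 and 141 RPKM at P14 and 116, 107 and 132 at P30, so that each age up to P14 lay wholly above the one before. It passed both thresholds in 3 neighboring comparisons, with log2 fold changes of 1.20 from E15.5 to P1 (SE 0.30, adjusted p = 0.0175), 1.87 from P1 to P8 (SE 0.21, adjusted p = 3.55e-05) and 1.28 from P8 to P14 (SE 0.17, adjusted p = 0.00132). The call from E15.5 to P1 was lost in 5 of 14 alternatives, including those without E15.5 replicate 1 (0.99, adjusted p = 0.0476) and without P1 replicate 2 (0.96, adjusted p = 0.0733). From E15.5 to P30 *Kcnab2* rose 18.4-fold (log2 4.20, SE 0.27, adjusted p = 1.12e-08).

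*Kcnab3* (ENSMUSG00000018470, chr11:69326258-69333042, plus strand), a beta subunit found mainly in nervous tissue, measured 2.57, 0.864 and 5.19 RPKM at E15.5 and 4.15, 3.19 and 2.10 at P1. It measured 9.41, 18.3 and 16.8 RPKM at P8, 24.8, 29.7 and 20.8 at P14, and 28.6, 39.8 and 36.2 at P30. The first 2 ages overlapped each other, and all 9 later libraries lay above them. The rise from P1 to P8 was 2.16 on the log2 scale (SE 0.44, adjusted p = 0.00472), and that from E15.5 to P30 was 3.89 (SE 0.54, adjusted p = 3.56e-05). The latter was 3.10 without E15.5 replicate 2 and 4.57 without E15.5 replicate 3, and was called in both. *Kcnab1* (ENSMUSG00000027827, chr3:65109384-65378223, plus strand) had means between 1.77 and 3.11 RPKM over the 5 ages. At P30 its libraries ran from 0.765 to 4.46 RPKM, a wider range than the means of all the ages, and from E15.5 to P30 its log2 fold change was 0.19 (SE 0.55, adjusted p = 0.802).

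**Figure D1:**
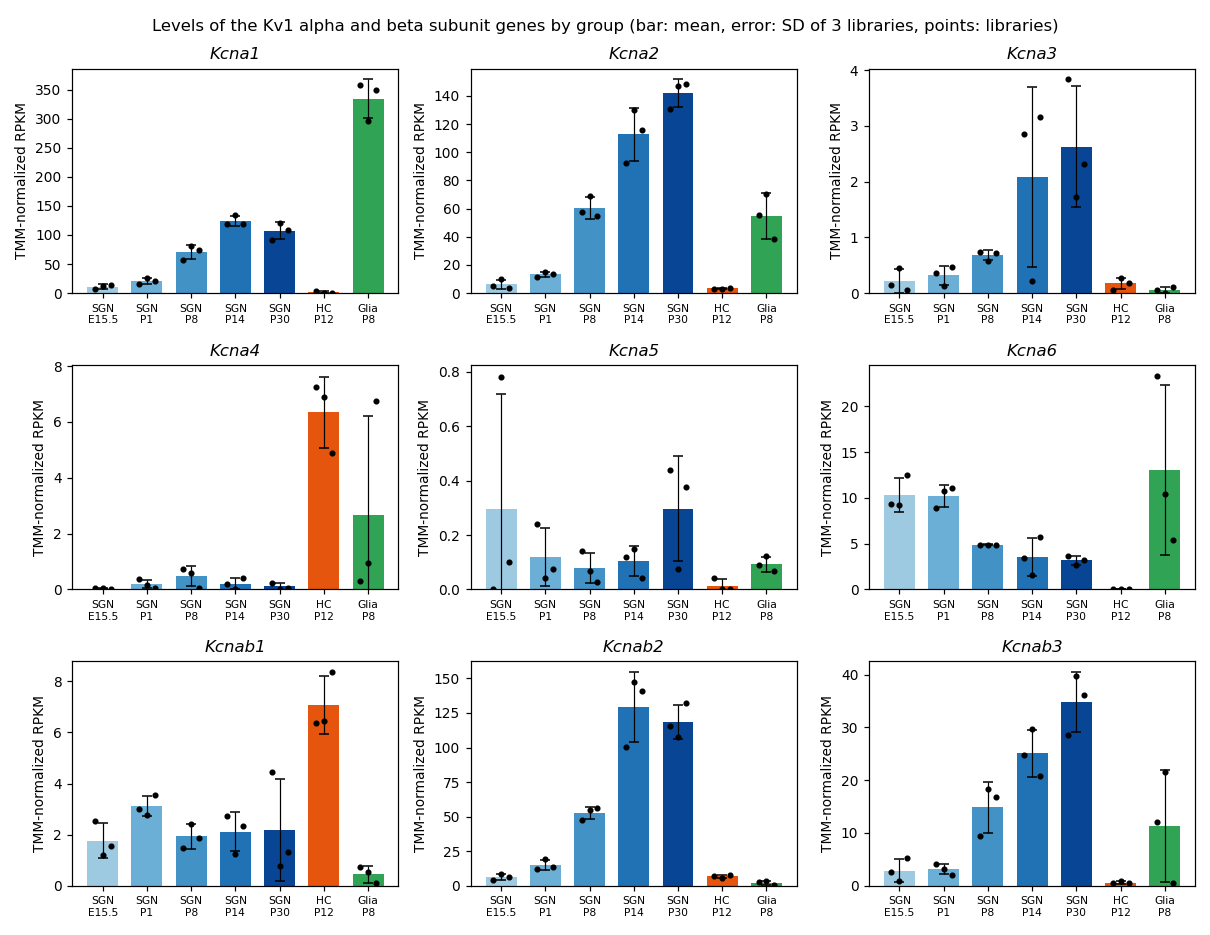
TMM-normalized RPKM (vertical axes, linear and different in each panel) of the 9 genes in the 5 SGN ages, P12 HCs and P8 glia, with bars for means, error bars for SDs and points for the 3 libraries of a group. *Kcna1*, *Kcna2*, *Kcnab2* and *Kcnab3* climb with SGN age, *Kcna6* declines, *Kcna4* and *Kcnab1* have their highest means in HCs, and *Kcna1* is highest in glia, with a mean of 335 RPKM.

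Counted by transition, the calls gathered between P1 and P8. Of the 9 genes, 7 passed the filter on low counts in the fit of the ages, and *Kcna4* and *Kcna5* did not. All but *Kcna3* passed it at every age. A call meant more than a 2-fold change at an adjusted p under 0.05. Between E15.5 and P1, 2 of the 7 rose (*Kcna2* and *Kcnab2*), where 5.08% of the 15113 genes tested rose. From P1 to P8, 4 rose (*Kcna1*, *Kcna2*, *Kcnab2* and *Kcnab3*), against 4.29% of all genes, and *Kcna6* fell, against 3.15%. How much of this rise of *Kcna1* came from glial RNA in the P8 libraries was not tested. From P8 to P14, *Kcnab2* alone rose, against 0.251%. From P14 to P30 limma-voom called 0 of the 7, against 0.0596% of all genes in either direction, and 0 of the 7 had an unadjusted p under 0.05. edgeR and DESeq2 also gave 0 calls and 0 unadjusted p-values under 0.05 there. P14 and P30 libraries of the same replicate number deviated alike from their group means, although the labels do not say that they are paired. With a replicate block the calls were also 0. There 1 gene had an unadjusted p under 0.05, *Kcna2* (adjusted p = 0.55 in limma-voom), for which every P30 library lay above every P14 library. From E15.5 to P30, *Kcna1*, *Kcna2*, *Kcnab2* and *Kcnab3* rose, against 18.4% of all genes, and *Kcna6* fell, against 16.2%. *Kcna3* is left out of this count because of the ages through which it passed the filter. The median log2 fold change from P1 to P8 of the 6 genes that passed at every age was 1.84, and that of all genes tested was -0.01.

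**Figure D2:**
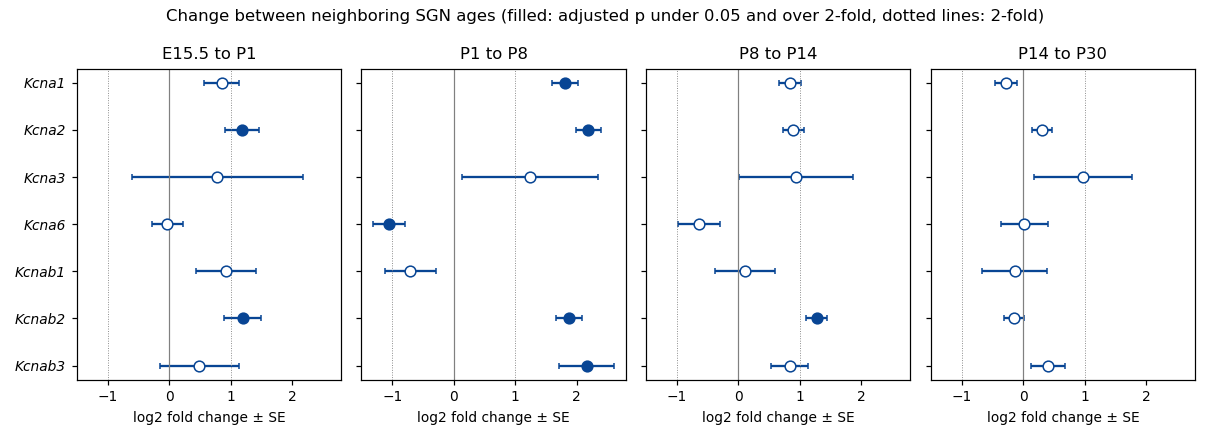
Log2 fold change with its SE (horizontal axis) of the 7 genes tested between neighboring SGN ages in limma-voom, with filled points for an adjusted p under 0.05 and a change over 2-fold. Filled points number 2, 5, 1 and 0 in the 4 panels from left to right.

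The makeup of the alpha subunit RNA differed between young and mature SGNs. Shares were taken of the summed length-scaled level (TPM) of the 6 alpha subunit genes in each library, and they are given without a test. At E15.5 *Kcna1* made up 38.6% ± 7.0, *Kcna6* 37.6% ± 8.42 and *Kcna2* 22.0% ± 9.01. At P30 *Kcna2* made up 55.7% ± 1.49, *Kcna1* 41.8% ± 2.35 and *Kcna6* 1.26% ± 0.303. The share of *Kcna6* was 44.1%, 28.1% and 40.5% in the E15.5 libraries and 1.58%, 0.976% and 1.24% in those of P30, with no overlap. The order of the means of *Kcna1* and *Kcna2* was reversed between P14 and P30. The ratio of *Kcna2* to *Kcna1* was 0.784, 0.964 and 0.972 in the P14 libraries and 1.43, 1.22 and 1.36 in the P30 libraries. At P8 it was 1.02, 0.857 and 0.740, so it was already above 1 in replicate 1. The ratio between the genes rests on the deposited lengths of 11906 bases for *Kcna2* and 4780 bases for *Kcna1*. In counts not divided by length, *Kcna2* exceeded *Kcna1* at E15.5 too, with 38.2% against 27.7%.

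The summed level of the alpha subunit genes rose from 28.2 ± 6.26 RPKM at E15.5 to 256 ± 21.8 at P30, and that of the beta subunit genes from 11 ± 1.89 to 155 ± 12.1. The ratio of the beta to the alpha sum was 0.397 ± 0.0671 at E15.5, 0.642 ± 0.0457 at P14 and 0.611 ± 0.0586 at P30, and all libraries of the later 2 ages lay above those of E15.5. *Kcnab2* held the largest share of the beta subunit sum at each SGN age, with means between 58.1% at E15.5 and 82.4% at P14. The share of *Kcnab1* was 16.8% ± 8.90 at E15.5 and 1.43% ± 1.36 at P30.

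**Figure D3:**
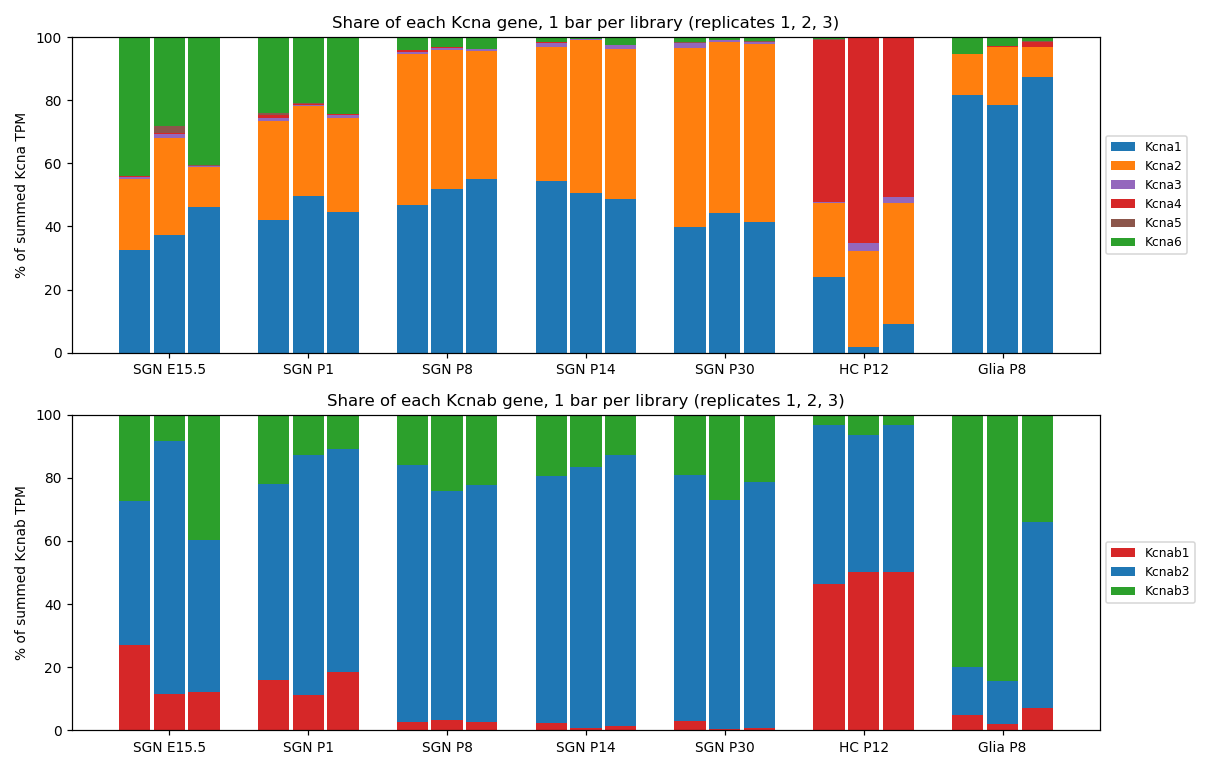
Share in percent (vertical axes) of each gene in the summed TPM of the 6 alpha subunit genes (top) and the 3 beta subunit genes (bottom), with 1 bar per library and 3 libraries per group. The *Kcna6* portion shrinks with SGN age, *Kcna4* and *Kcnab1* take large portions in HCs, and *Kcna1* takes between 78.4% and 87.4% of the alpha subunit sum in glia.

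Glia held more *Kcna1* RNA than any SGN library. In glia *Kcna1* measured 358, 297 and 349 RPKM (335 ± 33.1), against 70.3 ± 12.4 in SGNs of the same age, and it was lower in P8 SGNs than in glia by 2.28 on the log2 scale (SE 0.17, adjusted p = 6.49e-09). *Kcnab2* showed the reverse, with 2.31, 3.50 and 0.762 RPKM in glia, and was 27.2-fold higher in P8 SGNs (log2 4.77, SE 0.53, adjusted p = 8.55e-07). These were the calls among the 8 genes in the fit of all libraries, where the thresholds were an adjusted p of 0.01 and 4-fold. Of the 17531 genes tested, 13.4% were called higher and 7.53% lower in SGNs. *Kcna2* measured 55.8, 70.3 and 38.1 RPKM in glia, which overlapped P8 SGNs (log2 difference 0.17, SE 0.19, adjusted p = 0.504). *Kcna1* took 82.5% ± 4.54 and *Kcna2* 13.6% ± 4.57 of the alpha subunit sum in glia, and the beta subunit sum was 0.0352 ± 0.0322 of the alpha subunit sum.

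Other members varied widely between the glial libraries. *Kcna6* measured 23.4, 10.4 and 5.36 RPKM there, *Kcnab3* 12.2, 21.6 and 0.438, and *Kcna4* 0.299, 0.938 and 6.76. None of these 3 genes passed the thresholds between P8 SGNs and glia, with log2 differences of -1.33 (SE 0.43), 1.27 (SE 0.73) and -1.65 (SE 1.12). *Kcna3* was at 2, 0 and 2 counts in glia, at or under the limit of 3, and its mean of 0.680 RPKM in P8 SGNs is at least 5.49 times the mean of that limit over the glial libraries. P8 SGNs are 1 of the 2 groups through which it passed the filter, and it missed the threshold in limma-voom (adjusted p = 0.0152) and passed it in DESeq2 (adjusted p = 0.00725). *Kcnab1* was 0.715, 0.527 and 0.0899 RPKM in glia, and likewise passed in DESeq2 (adjusted p = 0.00237) but not in limma-voom (log2 difference 2.39, SE 0.81, adjusted p = 0.0219). It too had passed the filter through P8 SGNs and not through glia.

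Since glial *Kcna1* exceeded that of SGNs, its rise from P1 to P8 is set beside the myelin genes, which also peaked in the P8 SGN libraries. All 8 myelin genes were above 3 counts in those libraries. The sum ran from 57 to 122 RPKM at E15.5, from 41.2 to 133 at P1, from 116 to 442 at P14, from 6.24 to 76.3 in HCs and from 6646 to 9153 in glia. It was 1131, 673 and 845 RPKM at P8, or 15%, 8.94% and 11.2% of its glial mean. *Kcna1* stood at 16.9%, 24.0% and 22.1% of its own glial mean in these libraries. How much of the *Kcna1* level at P8 came from glial RNA was not tested. At P30 the myelin sum was 200, 46.1 and 8.82 RPKM, within or below the range at P1 in 2 of the 3 libraries. In these 2 libraries, replicates 2 and 3, *Kcna1* was 121 and 109 RPKM, above all of P1 and P8. Within the P8 group, replicate 1 had the highest myelin sum and the lowest *Kcna1*, and there the percentages of the glial means lay closest together.

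**Figure D4:**
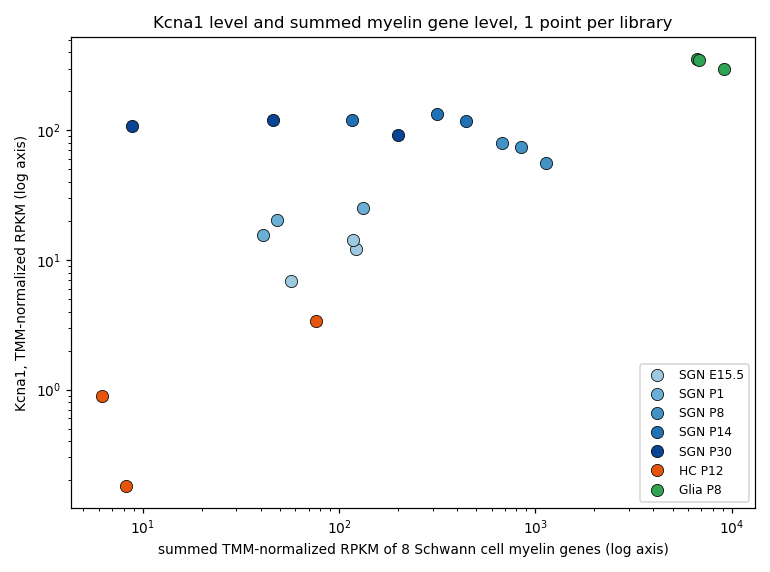
*Kcna1* level (vertical axis, log scale) against the summed level of 8 Schwann cell myelin genes (horizontal axis, log scale), both in TMM-normalized RPKM, with 1 point per library and color for the group. P14 and P30 SGN libraries lie between 91.8 and 135 RPKM of *Kcna1* while their myelin sums run from 8.82 to 442 RPKM, and glial libraries lie at the upper right.

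HCs held little RNA of the alpha subunits that dominated in SGNs. *Kcna1* was at 276, 20 and 106 counts in HCs, or 3.41, 0.179 and 0.890 RPKM, with the highest value in the library that also had the highest myelin sum. *Kcna2* measured 3.31, 3.22 and 3.74 RPKM, and *Kcna6* was at 8, 0 and 4 counts. Of the 8 genes tested, *Kcna1* (log2 difference 7.34, SE 0.69), *Kcnab3* (5.42, SE 1.09), *Kcna2* (5.01, SE 0.34) and *Kcnab2* (4.22, SE 0.29) were higher in P14 SGNs, where 10.9% of all genes were. Their adjusted p-values were up to 0.000377 in limma-voom. *Kcna6* had passed the filter through SGNs and glia and not through HCs, so its fitted log2 difference (7.24, SE 1.17) is a description. The sizes for *Kcna1* and *Kcna6* rest on low HC counts, and over 14 alternatives they ran from 6.18 to 8.27 and from 5.98 to 8.24.

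*Kcna4* and *Kcnab1* had their highest mean levels in HCs. *Kcna4* measured 7.26, 6.89 and 4.90 RPKM in HCs, which overlapped glia through the 6.76 RPKM of glial replicate 3, and at most 0.407 RPKM in P14 SGNs, on 20, 2 and 32 counts. It had passed the filter only through HCs and glia, so its fitted log2 difference of P14 SGNs from HCs (-5.60, SE 1.12) is a description. It was -4.58 without P14 replicate 2 and -6.47 without P14 replicate 3. *Kcnab1* measured 6.37, 6.45 and 8.38 RPKM in HCs, above all the other libraries, yet its difference from P14 SGNs (-1.80, SE 0.45, adjusted p = 0.00275) was under 4-fold. It was over 4-fold under library size scaling (-2.53), DESeq2's size factors (-2.02) and without P14 replicate 1 (-2.11). Within the alpha subunit sum of HCs, *Kcna4* made up 51.3%, 65.3% and 50.3% and *Kcna2* 23.3%, 30.5% and 38.4%. In counts not divided by length the order of the means turned, with 52.2% for *Kcna2* and 38.8% for *Kcna4*. *Kcnab1* and *Kcnab2* took 48.8% ± 2.10 and 47.0% ± 3.46 of the beta subunit sum. The beta subunit sum exceeded the alpha subunit sum in HC replicates 2 and 3, with ratios of 1.22 and 1.72, and came close to it in replicate 1, with 0.970. This alpha subunit sum leaves out *Kcna10*, a further alpha subunit gene whose level of at least 166 RPKM in HCs was above both sums. *Kcna3* was at 2, 12 and 9 counts in HCs and was not called against P14 SGNs in limma-voom (log2 difference 2.98, SE 1.05, adjusted p = 0.0252). It passed both thresholds in DESeq2 and without P14 replicate 2 (4.13), the P14 library in which it had only 8 counts. It had passed the filter through P8 and P30 SGNs and not through HCs, so these fitted differences are descriptions.

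Between HCs and glia, *Kcna1* (log2 difference -8.78, SE 0.69) and *Kcna2* (-3.97, SE 0.36) were lower in HCs, where 8.18% of all genes were lower. Their adjusted p-values in limma-voom were at most 4.00e-08. *Kcna6* (-9.21, SE 1.14) had not passed the filter through HCs, nor *Kcnab1* (4.30, SE 0.78) through glia, so these 2 fitted differences are descriptions. The sizes again rest on single libraries. Without HC replicate 1 they were -9.70 for *Kcna1* and -10.21 for *Kcna6*, and without HC replicate 2 they were -7.73 and -7.95. For *Kcna6* the value without glial replicate 1 was -8.51, and for *Kcnab1* the values without glial replicates 1 and 3 were 4.96 and 3.50. With sample quality weights *Kcnab1* missed the threshold on the adjusted p (4.19, adjusted p = 0.0190). *Kcnab2* was not called in limma-voom (1.81, SE 0.58, adjusted p = 0.0156) and was called in 1 alternative, library size scaling. The calls of *Kcna4* and *Kcnab3* changed with glial replicate 3 and with the method. Without that library *Kcna4* was higher in HCs (3.65, adjusted p = 0.00459, against 2.55 and 0.0144 with it), and *Kcnab3* was lower in HCs (-4.69, adjusted p = 0.000116, against -3.31 and 0.0324 with it). With all libraries, *Kcna4* was also called under library size scaling (3.06), DESeq2's size factors (2.78) and a replicate block (2.91), whereas it was 1.26 in edgeR (adjusted p = 0.397), 1.32 in DESeq2 (adjusted p = 0.329) and 1.35 in limma-voom without glial replicate 1 (adjusted p = 0.161). *Kcnab3* was also called in edgeR (-4.26, adjusted p = 0.000783), in DESeq2 (-4.11, adjusted p = 4.16e-07) and with sample quality weights (-3.45, adjusted p = 0.00997), and was -2.50 and -2.45 without glial replicates 1 and 2. The HC and glial libraries enter both this comparison and those with SGNs.

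Of the further genes of the family, *Kcna10*, a neighbor of *Kcna2* and *Kcna3* on chromosome 3, measured 166, 185 and 183 RPKM in HCs. That is above the sum of the 6 alpha subunit genes there, which was 11.5 ± 2.35 RPKM. *Kcna10* was lower in P14 SGNs by 4.12 (SE 0.47, adjusted p = 6.69e-07), with 22.3, 7.59 and 5.27 RPKM, of which the highest was in the P14 library whose HC marker sum reached 12.1% of the HC mean. *Kcna7* had a group mean of at most 1.64 RPKM.

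The 13 genes whose products hold, scaffold or bind Kv1 channels all entered both fits. *Cntnap2* and *Cntn2* encode adhesion molecules that keep Kv1 channels beside the node, *Epb41l3* a link to the cytoskeleton, *Dlg1* to *Dlg4* membrane scaffolds, *Lgi1* to *Lgi4* secreted proteins, and *Adam22* and *Adam23* their receptors. From E15.5 to P1, 4 of 13 rose, namely *Lgi2* (log2 fold change 2.14, SE 0.24), *Cntnap2* (1.96, SE 0.20), *Dlg2* (1.31, SE 0.18) and *Epb41l3* (1.15, SE 0.20), against 5.08% of all genes. From P1 to P8, *Lgi3* (3.01, SE 0.36) and *Adam23* (1.71, SE 0.21) rose, against 4.29% of all genes. *Lgi1* fell (-1.24, SE 0.39, adjusted p = 0.0486 in limma-voom), against 3.15%. From P8 to P14 *Lgi3* rose again (1.02, SE 0.22, adjusted p = 0.0411 in limma-voom), close to both thresholds, against 0.251%. From P14 to P30 limma-voom called 0 of 13, with 3 at an unadjusted p under 0.05 by limma-voom, edgeR and DESeq2 alike. With the replicate block 0 were called and 4 were under 0.05, with a lowest adjusted p of 0.019 in limma-voom against 0.213 without the block.

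*Cntnap2*, at 5.75 ± 1.12 RPKM at E15.5, had reached 22.0 ± 3.78 RPKM at P1 and was not called between later ages, while *Kcna1* and *Kcna2* were called from P1 to P8. *Lgi3*, like *Kcnab2*, was called both from P1 to P8 and from P8 to P14, though its second call lay close to both thresholds. The levels of *Lgi3* were 0.743 ± 0.0775 RPKM at E15.5 and 66.7 ± 13.0 at P30. Over the whole span from E15.5 to P30, 6 partners rose, against 18.4% of all genes, and 2 fell, against 16.2%, with *Lgi3* (6.41, SE 0.71), *Adam23* (2.76, SE 0.24), *Cntnap2* (2.27, SE 0.20) and *Epb41l3* (2.15, SE 0.19) the furthest from 0.

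Against glia, 7 of 13 partners were higher in P8 SGNs, where 13.4% of all genes were, and 1 was lower, where 7.53% were, the latter being *Lgi4* (log2 difference -4.90, SE 0.66), which Schwann cells secrete. *Lgi3* (5.52, SE 0.81), *Lgi2* (4.74, SE 0.80) and *Adam22* (4.48, SE 0.70) were the furthest above 0. In glial replicate 1, the library with the most SGN marker RNA, *Cntnap2* was at 7.57 RPKM, against 0.349 and 0.226 in the other 2. *Lgi2* was at 16.3 RPKM there, against 0.454 and 0.326. Against HCs, 7 of 13 were called higher in P14 SGNs, against 10.9% of all genes, and 1 lower, against 12.2%. Of those that passed the filter through HCs, *Lgi2* (8.55, SE 1.20), *Adam23* (6.06, SE 0.46) and *Cntn2* (6.01, SE 0.64) were furthest above 0. *Lgi3* (10.18, SE 0.99) is counted among the 7, on 12, 0 and 8 counts in HCs. It had not passed the filter through HCs, so its fitted difference is a description. Between HCs and glia, *Dlg2* (3.68, SE 0.52) and *Cntnap2* (3.51, SE 0.68) were higher in HCs, against 16.2% of all genes. A further 3 were called lower, against 8.18%, among them *Adam23* (-3.61, SE 0.50). *Lgi4* (-7.47, SE 0.94) is counted among these 3, on 20, 16 and 4 counts in HCs. It too had not passed the filter through HCs, so its fitted difference is a description.

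The genes whose pattern over the 21 libraries was most like that of a member were sought among 13854 protein-coding genes by Pearson's r of log2(TPM + 1), as a description, since libraries of 1 group and the scale of each library are common to all genes. For *Kcnab2* they were *Itm2c* (r = 0.975), *Hcn2* (0.974), which encodes a pacemaker channel, and *Fndc5* (0.970). For *Kcna2* they were *Cd59a* (0.938), *Lrrk2* (0.917) and *Capns1* (0.913). Those nearest to *Kcna1* were *Efemp1* (0.916), *Adamts5* (0.901) and *Rassf8* (0.884). *Kcna6* was closest to *Ptms* (0.962), *Cadm1* (0.935) and *Fkbp1a* (0.930), and *Kcnab3* to *Ifi27* (0.906), *Omg* (0.9) and *Cdr2l* (0.891). For the genes high in HCs, the nearest were *Vstm4* (0.964), *Cacna2d4* (0.960) and *Ppil6* (0.957) to *Kcna4*, and *Fam149a* (0.968), *Pcnx4* (0.950) and *Acsl1* (0.950) to *Kcnab1*. With RPKM in place of TPM, 12 of the 24 genes found for the 8 members in the fit were found again.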

How the data were processed

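Per the labels, the methods and the processing notes, the authors amplified RNA with the Ovation RNA-Seq System, which does not mark strand, mapped reads to mm10 with STAR 2.4.0i, and deposited raw counts per gene of GENCODE vM15 from featureCounts, with a length for each gene. Strand, multimapping and pair settings are not given in the sources used here, and 67.9% (median over libraries) of low counts were even, so 1 fragment may count 2 times. The methods describe HCs as sorted by flow cytometry, the labels as picked by hand. Column names gave each library's group. Symbols were matched for 52403 of 52550 genes, and positions and transcripts came from GENCODE M21 on GRCm38.

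Counts were fitted with limma-voom (limma 3.58.1) after TMM scaling (edgeR 4.0.16), with a mean per group, two-sided tests and Benjamini-Hochberg adjustment over all genes tested. Between ages, the fit held the 15 SGN libraries and the 15113 genes that exceeded 1 CPM in each replicate of at least 1 age (adjusted p under 0.05, over 2-fold). Against HCs and glia, all 21 libraries and 17531 genes were used (adjusted p under 0.01, over 4-fold). These are the thresholds the study names. Scripts were tested on simulated data. TPM, CPM and RPKM were computed here. RPKM was chosen for levels after seeing that genes under 200 bases took 9.72% to 75.1% of TPM per library. Limits on counts of 0 cover counting error only, since PCR reads are not independent molecules.

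Every member is named with its levels, and tests are given for members called or whose call an alternative changed. Of the partners, at most 4 called genes per comparison are named, those with the largest change. The genes most like *Kcna3* are not reported here. The members, lists and tests were chosen with earlier results of these data known. P14 and P30 libraries of the same replicate number deviated alike from their group means (correlations of deviations 0.394, 0.244 and 0.105). In each other comparison at least 1 number was under 0.1, though not every one. The correlations were 0.372, 0.0665 and 0.162 from P1 to P8, and 0.339, 0.146 and 0.0292 from P8 to P14. Libraries of different numbers were not compared in this way, and the labels do not say that any libraries are paired. Alternatives were edgeR's quasi-likelihood test, DESeq2 1.42.0, 2 other scalings, no filter, quality weights, a replicate block, fewer libraries and leaving out each library.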

Additional observations from a re-analysis of the deposited data

How the results depend on the processing

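Of 26 calls of single members, those of *Kcna3*, *Kcna4*, *Kcna6* and *Kcnab1* given as descriptions included, 21 held in all 14 alternatives. A further 9 results were called in an alternative only, and 0 changed direction. The number of members called from E15.5 to P1, 2 in the report, was 0 without the filter on low counts, 1 with quality weights and 0 with only the 6 libraries compared. Leaving out 1 library at a time, it ran from 0 to 3, that from P8 to P14 from 1 to 2, and that from P14 to P30 stayed at 0. DESeq2 called 4 members between P8 SGNs and glia in place of 2. The replicate block left the number of members called at 0 from P14 to P30, where libraries of the same number deviated alike. It changed 1 member call elsewhere, that of *Kcna4* between HCs and glia (2.91, adjusted p = 0.00822). The causes were not tested.

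Counts not divided by length gave other shares. At E15.5 they were 27.7% for *Kcna1* and 38.2% for *Kcna2*, and at P30 22.9%, 75.9% and 0.860% for *Kcna1*, *Kcna2* and *Kcna6*. In HCs they were 52.2% for *Kcna2* and 38.8% for *Kcna4*, and in glia 68.5% for *Kcna1* and 27.7% for *Kcna2*. Of 63 group levels, 42 differed by over 1 SD between RPKM and TPM. Within a library these scales differ by the same factor for every gene, so this count cannot show how stable the levels are. The choice of RPKM was made after seeing the data.

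Scaling by library size alone moved the median log2 fold change of all genes to -0.48 from E15.5 to P30, -0.75 between P14 SGNs and HCs and 0.64 between HCs and glia. It changed the genes called higher and lower from 767 and 481 to 572 and 638 (E15.5 to P1), from 648 and 476 to 425 and 756 (P1 to P8), and from 38 and 43 to 19 and 55 (P8 to P14). The same held from E15.5 to P30 (2778 and 2446 to 1714 and 3944), for P14 SGNs against HCs (1910 and 2136 to 1231 and 3318), and for HCs against glia (2838 and 1434 to 3580 and 1018). Over all alternatives, all genes called ran from 552 to 1772 from E15.5 to P1 (1248 in the report), 649 to 1458 from P1 to P8 (1124), 28 to 198 from P8 to P14 (81) and 1 to 110 from P14 to P30 (9). They ran from 1942 to 4133 for P8 SGNs against glia (3662) and from 2225 to 4901 for HCs against glia (4272). With 3 libraries per group and median counts of 18, 28 and 5 per library, *Kcna3*, *Kcna4* and *Kcna5* allow only loose fold changes.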
